A study of Caenorhabditis elegans with 12 samples.

Results

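The regions described here are the H3K9me2 peaks on the arms of Chromosome III in *C. elegans*, taken from the peak lists of 2 ChIP-seq experiments. A peak was assigned to the left arm when its midpoint lay below position 3720000 and to the right arm when its midpoint lay at or above 10340000, on genome build WS220/ce10. By this rule 2665 peaks were on the arms, of 16340 in both lists together. The list of the *wdr-5* experiment contributed 1017 peaks on the left arm and 750 on the right arm, which made up 16.9% of its 10457 peaks. The list of the *jhdm-1* experiment contributed 482 and 416 peaks, or 15.3% of its 5883 peaks. The lists were kept apart, since they come from different sets of libraries, and so were the arms.

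Both experiments profiled whole, mixed-stage animals. The *wdr-5* experiment compared wild type (N2) with *wdr-5 (ok1417)* mutants each in early-, mid- and late-gen populations (6 groups). The *jhdm-1* experiment compared wild type with *jhdm-1 (ok2364)* mutants in early- and mid-gen populations (4 groups). Animals were grown on bacteria on plates, and input DNA came from mixed strains. Populations were reset either by thawing or by keeping mutants heterozygous for several generations before homozygotes were picked, so the groups can differ in history as well as in genotype. For the early-gen and for the mid-gen wild type, a library of the *wdr-5* experiment was used again in the *jhdm-1* experiment, so the lists are not fully independent. Each list is the union of the peaks of all its groups, wild type included, and holds nothing but positions. It carries no signal, depth or replicate value, so nothing below separates genotypes or generations, and no statement below has a test over animals.

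H3K9me2 is the dimethylated form of lysine 9 on histone H3 and marks heterochromatin, the condensed and mostly silent part of the genome. In *C. elegans* it depends mainly on the methyltransferase MET-2 and is found together with HP1 proteins. The autosomes of this worm have gene-dense centres and arms that are rich in repeats and transposons, and H3K9 methylation tethers the arms to the nuclear envelope. WDR-5 is a subunit of COMPASS, the complex that methylates H3K4 at transcribed genes, and JHDM-1 is a putative H3K9 demethylase. Peaks on an arm therefore show where heterochromatin was detected in at least some of the populations. A genome sequence for WS220/ce10 was not used here, so no peak is assigned to a gene or repeat and no sequence is printed.

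The arms of Chromosome III differed from each other in the *wdr-5* list and were much alike in the *jhdm-1* list. The *wdr-5* peaks covered 1.19 Mb of the left arm, or 32.0% of its 3.72 Mb. Right of the centre they covered 0.604 Mb, or 17.6% of the 3.43 Mb from the inner edge to the last peak end. The *jhdm-1* peaks covered 13.7% of the left arm and 12.7% of the right arm. The ratio of left to right in percent covered was thus 1.82 in the *wdr-5* list and 1.08 in the *jhdm-1* list. In number of peaks per Mb the arms were closer. The left arm had 273 *wdr-5* peaks per Mb and the right arm 219, and the *jhdm-1* list had 130 and 121. The greater *wdr-5* coverage of the left arm thus went with 1.25 times as many peaks per Mb and a mean length 1.46 times that on the right arm, 1172 bp against 805 bp. The experiments differ in the number of groups, libraries and replicates, in the mutant and in the generations sampled. The parts of these in any difference between the lists cannot be told apart.

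**Figure D1:**
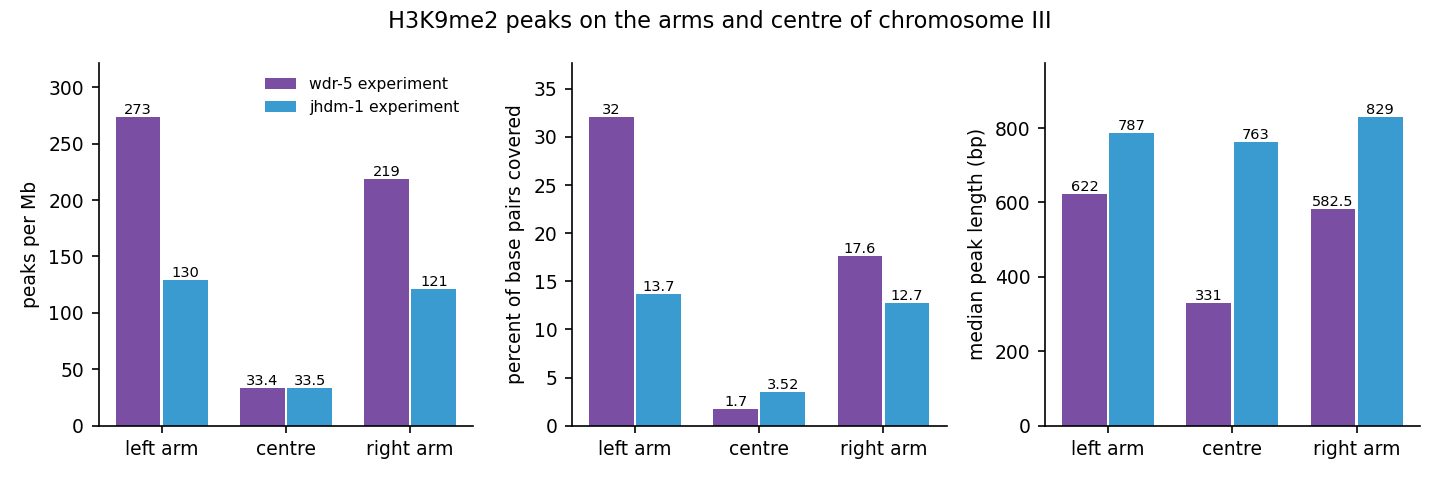
Peaks per Mb, percent of base pairs covered and median peak length (bp) in the left arm, centre and right arm of Chromosome III, as bars for the *wdr-5* list (purple) and the *jhdm-1* list (blue). The lists hold 33.4 and 33.5 peaks per Mb in the centre, whereas on the left arm the *wdr-5* list has 273 and the *jhdm-1* list 130.

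The centre of the chromosome gives the contrast for these values. Between the arms, over 6.62 Mb, the lists held nearly the same number of peaks, 221 in the *wdr-5* list and 222 in the *jhdm-1* list. The *wdr-5* list held 2.11 times as many peaks as the *jhdm-1* list on the left arm and 1.80 times as many on the right arm. By coverage the order of the lists turned over between centre and arms. In the centre *wdr-5* peaks covered 1.70% and *jhdm-1* peaks 3.52%, a ratio of 0.483, against ratios of 2.34 on the left arm and 1.39 on the right arm. The ratios of peak numbers on the arms depend on how peaks are joined. With peaks within 1 kb of each other merged, the lists had 438 and 438 on the left arm and 445 and 382 on the right arm.

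The lengths of the peaks were examined next. The median *wdr-5* peak was 622 bp long on the left arm and 582.5 bp on the right arm, a small difference beside quartiles of 316 and 1176 bp on the left and 353.25 and 973.25 bp on the right. The arms parted in the long peaks. Of the *wdr-5* peaks on the left arm, 39 (3.83%) were 5 kb or longer, and these held 27.1% of the covered base pairs. Only 2 *wdr-5* peaks of the right arm reached 5 kb, and they held 2.16%. The 102 longest *wdr-5* peaks of the left arm held 45.8% of its covered base pairs, and the 75 longest of the right arm, about the same proportion of its peaks, held 31.4%. Under 200 bp long were 102 *wdr-5* peaks of the left arm (10.0%) and 36 of the right arm (4.8%). The whole list had 1035 of 10457 such peaks, so the left arm was near the list and the right arm below it.

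The *jhdm-1* list showed no such contrast. Its median peak was 787 bp long on the left arm and 829 bp on the right arm, with upper quartiles of 1318.75 and 1310.75 bp. On each arm 4 of its peaks were 5 kb or longer, holding 5.61% of the covered base pairs on the left and 7.05% on the right. No *jhdm-1* peak on either arm was shorter than 200 bp, a length that 6 of its peaks on the left arm and 9 on the right arm had exactly. The whole lists differed in the same way. In the *wdr-5* list 1035 peaks were under 200 bp, down to 46 bp, whereas in the *jhdm-1* list none was and 90 were exactly 200 bp. How this difference arose is not known from the lists, so the shortest peaks should not be set against each other.

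**Figure D2:**
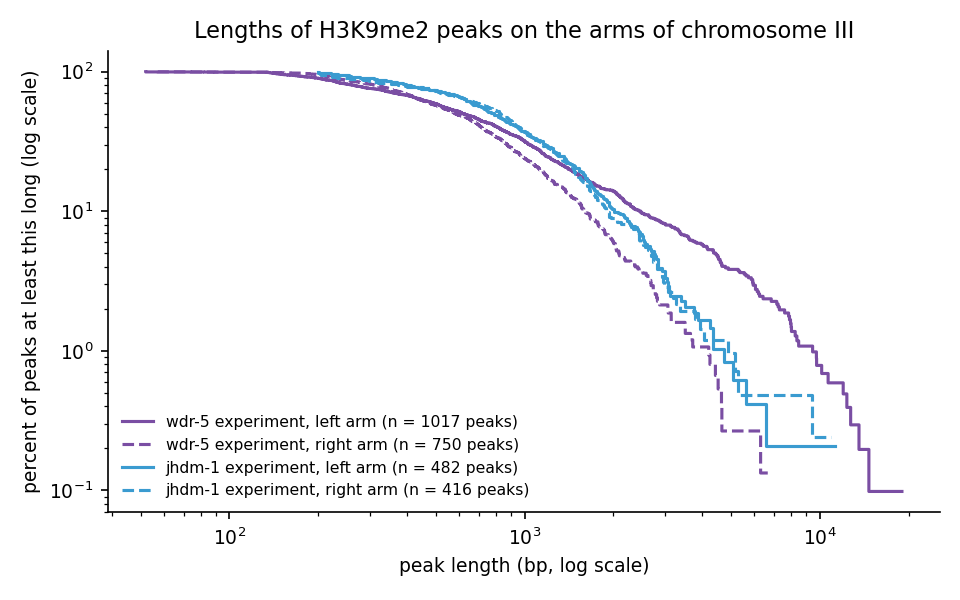
Percent of peaks at least as long as the length on the x axis (bp), with both axes on a log scale, for the left arm (solid) and right arm (dashed) in the *wdr-5* list (purple) and the *jhdm-1* list (blue). The *jhdm-1* curves of both arms lie close together, and the *wdr-5* curve of the left arm runs out to 18987 bp whereas that of the right arm ends at 6724 bp.

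The 3 longest *wdr-5* peaks on the left arm are large domains by the measure of these lists. The longest spanned 18987 bp (chrIII:1172296-1191282) and met 9 *jhdm-1* peaks, which covered 31.8% of it. The next was 14672 bp long (chrIII:1834076-1848747), with 2 *jhdm-1* peaks over 17.7% of it. The third was 13582 bp long (chrIII:1485397-1498978), with 3 *jhdm-1* peaks over 36.5% of it. In each of them the *jhdm-1* peaks were patches within a longer *wdr-5* peak. A similar picture was seen over the 39 long *wdr-5* peaks of this arm, of which 34 met at least 1 *jhdm-1* peak. The *jhdm-1* peaks covered 24.1% of a long *wdr-5* peak at the median and 61.8% at most. Of these 39 peaks, 33 lay between 1 and 2.5 Mb.

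The longest *wdr-5* peaks of the right arm were 6724 bp (chrIII:12701315-12708038), 6304 bp (chrIII:11934002-11940305) and 4660 bp (chrIII:11612482-11617141). The first met 2 *jhdm-1* peaks over 43.0% of its length, and the second met 2 over 82.2%. The third was nearly free of *jhdm-1* peaks, with 5.94% of it covered. No *wdr-5* peak of this arm met more than 2 *jhdm-1* peaks, and a peak of 4646 bp (chrIII:11336565-11341210) was another of the 4 that met 2.

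The 8 *jhdm-1* peaks of 5 kb or more met between 1 and 9 *wdr-5* peaks each. The longest on the left arm was 11267 bp (chrIII:388434-399700) and met 9 *wdr-5* peaks, which filled 32.5% of it. The longest on the right arm was 10892 bp (chrIII:11592829-11603720) and also met 9 *wdr-5* peaks, here filling 80.8%. Thus a region called as a single peak in either experiment could hold several peaks in the other. The next longest *jhdm-1* peaks on the left arm were 6597 bp (chrIII:111843-118439) and 5617 bp (chrIII:1119286-1124902), with 11.4% and 90.3% of their length in *wdr-5* peaks. Those of the right arm were 9378 bp (chrIII:11427193-11436570) and 5269 bp (chrIII:11787817-11793085), with 73.1% and 34.2%. The agreement between the lists therefore varied widely even among the longest peaks.

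Along the arms, coverage was uneven. In windows of 100 kb, counted inward from the chromosome end, the *wdr-5* peaks covered from 3.0% to 84.3% of a window on the left arm, with a median of 30.6% over 37 windows. In 8 of the 37 windows they covered 50% or more. Over the 34 windows of the right arm, the range was from 3.03% to 42.4% with a median of 16.1%, and no window reached 50%. The *jhdm-1* peaks covered from 4.19% to 23.2% on the left arm and from 3.81% to 20.4% on the right arm, with medians of 13.6% and 13.4%. The SD of the windows relative to their mean was 0.689 and 0.604 for the *wdr-5* list and 0.398 and 0.372 for the *jhdm-1* list, on the left and right arm. The *jhdm-1* peaks were thus spread more evenly on both arms.

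Both lists had their best covered window of the left arm in the same place, from 1500001 to 1600000. There, 35 *wdr-5* peaks covered 84.3% and 20 *jhdm-1* peaks covered 23.2%. By number of peaks the left arm windows differed, with 49 *wdr-5* peaks beside 12 *jhdm-1* peaks from 300001 to 400000, and 23 *jhdm-1* peaks beside 31 *wdr-5* peaks from 1100001 to 1200000. The best covered windows of the right arm, which also had most peaks, were not the same for both lists. That of the *wdr-5* list ran from 12472079 to 12572078, with 42 peaks over 42.4%, and *jhdm-1* peaks covered 14.7% of it. That of the *jhdm-1* list ran from 12172079 to 12272078, with 21 peaks over 20.4%, and *wdr-5* peaks covered 22.4% of it. Over the windows, the rank correlation of percent covered between the lists was 0.53 on the left arm (37 windows) and 0.32 on the right arm (34 windows). These correlations describe neighbouring windows of pooled lists that have libraries in common, and no p-value is attached to them.

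In some windows of both arms the order of the lists was turned around. The *jhdm-1* peaks covered more than the *wdr-5* peaks in 9 of 37 windows on the left arm and in 10 of 34 on the right arm. The outermost 500 kb of the right arm were of this kind, with 7.99% in *wdr-5* and 11.6% in *jhdm-1* peaks. So was a stretch of the left arm. Between 0.6 and 0.9 Mb, *wdr-5* peaks covered between 3.51% and 3.77% of each of the 3 windows, and 18 peaks were called there. The *jhdm-1* list had 33 peaks in the same stretch and covered between 7.14% and 11.0% of each window. The widest gap between *wdr-5* peaks on this arm, 52194 bp from 791903 to 844096, fell within it and held 3 *jhdm-1* peaks. Of the *wdr-5* peaks in the stretch 7 met a *jhdm-1* peak, and 7 *jhdm-1* peaks met a *wdr-5* peak. In the last 220 kb of the left arm, from 3500001 to 3720000, coverage was low in both lists, with 3.49% in *wdr-5* and 5.65% in *jhdm-1* peaks. The innermost part of the right arm, from 10340001 to 10772078, was low in the *wdr-5* list alone. There *wdr-5* peaks covered 5.05%, whereas *jhdm-1* peaks covered 11.2%, near their 12.7% over the whole arm.

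**Figure D3:**
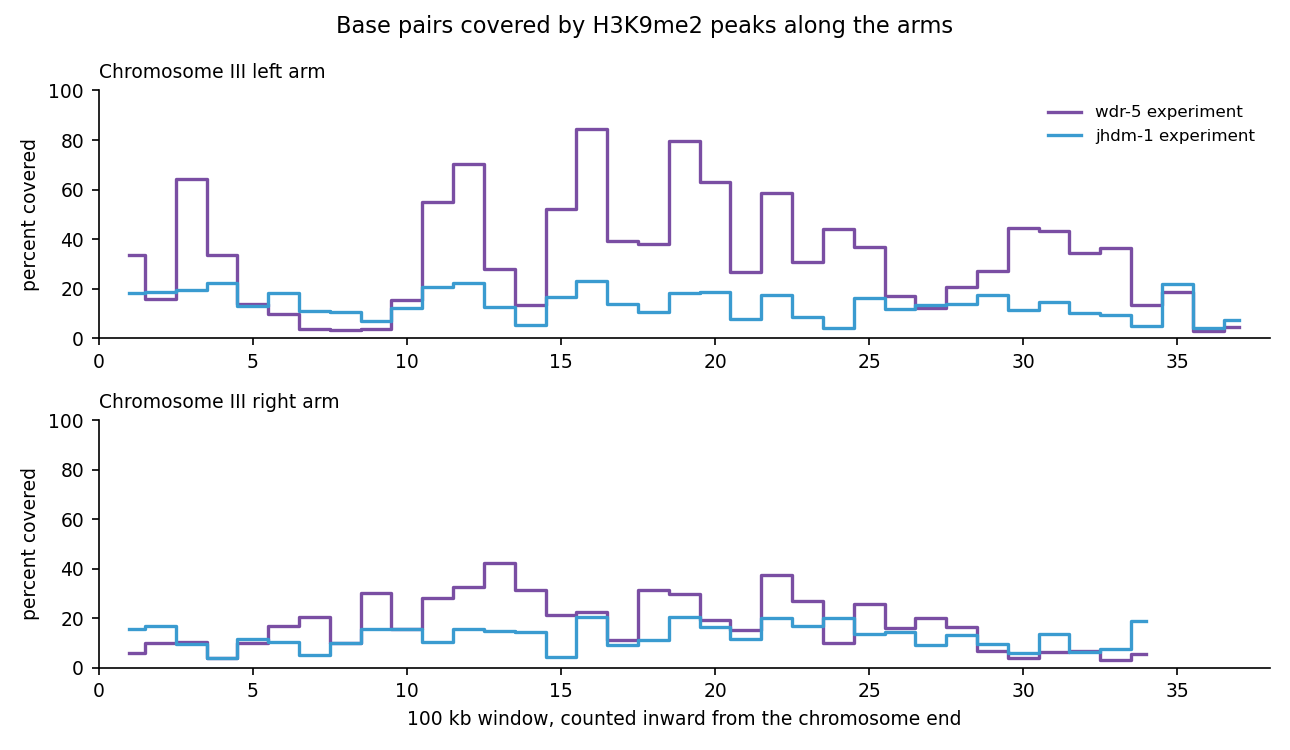
Percent of each 100 kb window covered by peaks of the *wdr-5* list (purple) and the *jhdm-1* list (blue), with windows numbered inward from the chromosome end on the left arm (37 windows, top) and right arm (34 windows, bottom). The *wdr-5* line reaches 84.3% in window 16 of the left arm and 42.4% in window 13 of the right arm, and the *jhdm-1* line stays at or below 23.2% on both arms.

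The outermost peaks differed between the lists. On the left arm the first *wdr-5* peak was 181 bp long and started at 2362, and the first *jhdm-1* peak, 1683 bp, started at 12715. At the other end of the chromosome the order was the other way round. The last peak was a *jhdm-1* peak of 3060 bp (chrIII:13769019-13772078), and the last *wdr-5* peak, 230 bp long, ended at 13759743. In the outermost 500 kb of the right arm the *jhdm-1* peaks had a median length of 1284 bp, the highest of the 500 kb windows on either arm in this list, where the others ranged from 677.5 to 906 bp over whole windows. At the inner edges the rule cut through sparsely covered sequence. The innermost *wdr-5* peak of the left arm started at 3695045 (717 bp) and the next, outside the arm, at 3723697 (515 bp). The innermost *wdr-5* peak of the right arm started at 10374782 (315 bp), and the nearest outside it at 10329112 (602 bp). In the *jhdm-1* list the corresponding starts were 3705980 (948 bp) and 3728683 (416 bp) on the left, and 10345684 (509 bp) and 10333974 (560 bp) on the right.

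Neighbouring *wdr-5* peaks lay close together, above all on the left arm. The median gap between them was 776.5 bp on the left arm and 1528 bp on the right arm, and 25.4% and 12.7% of the gaps were under 200 bp. In the *jhdm-1* list the median gaps were 3787 and 4386 bp, and 2 gaps on the left arm and none on the right were under 200 bp. When peaks separated by at most 1 kb were read as a run, the 1017 *wdr-5* peaks of the left arm formed 438 runs and the 482 *jhdm-1* peaks also formed 438. Right arm peaks formed 445 *wdr-5* runs and 382 *jhdm-1* runs. Read as runs, the left arm thus no longer had more *wdr-5* units per Mb than the right arm. In runs of more than 1 peak lay 77.1% of the *wdr-5* peaks of the left arm and 63.3% of those of the right arm, against 17.2% and 15.6% of the *jhdm-1* peaks.

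Runs of 10 kb or more were a feature of the *wdr-5* list on the left arm, which had 26 of them. The right arm had 4, and the *jhdm-1* list had 2 on the left arm and 1 on the right. The 26 runs took up 13.4% of the left arm and held 38.1% of the *wdr-5* base pairs there. Within them *wdr-5* peaks covered 90.8% and *jhdm-1* peaks 26.2%, and each of the 26 met at least 1 *jhdm-1* peak. Such meetings say little, because runs of this length exceed the median gap of 3787 bp between *jhdm-1* peaks on this arm. Of these runs 17 were centred between 1 and 2.5 Mb.

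The longest run on either arm spanned 95.6 kb (chrIII:1485397-1580993). It consisted of 27 *wdr-5* peaks that covered 93.6% of it, from 54 to 13582 bp long, with gaps between 27 and 829 bp. Of these peaks 8 were 5 kb or longer. In the same interval the *jhdm-1* list had 23 peaks from 231 to 4362 bp long, which covered 29.4%. Each of the 23 met a *wdr-5* peak, and 19 lay wholly within *wdr-5* peaks. Conversely, 14 of the 27 *wdr-5* peaks met a *jhdm-1* peak. The interval therefore appeared as a nearly unbroken domain in the *wdr-5* list and as separate patches, up to 12650 bp apart, in the *jhdm-1* list. The second longest run on the left arm covered 34649 bp (chrIII:1819637-1854285) with 8 *wdr-5* peaks. The longest on the right arm was 16008 bp long (chrIII:11589055-11605062) with 10 *wdr-5* peaks, and it encloses the longest *jhdm-1* peak of that arm.

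**Figure D4:**
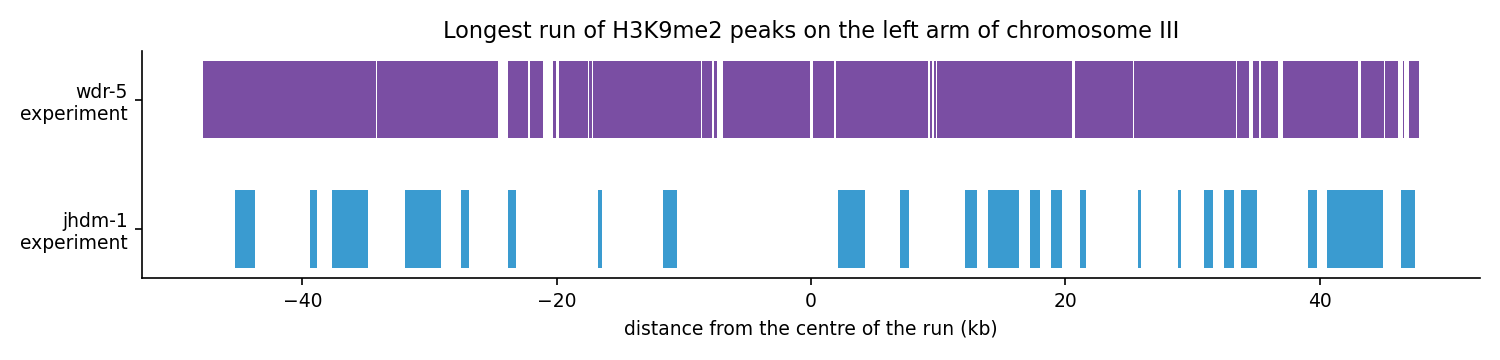
Peaks of the *wdr-5* list (purple, 27 peaks) and of the *jhdm-1* list (blue, 23 peaks) in the longest run of the left arm, drawn to scale by distance from the centre of the run (kb). The *wdr-5* peaks fill 93.6% of the 95.6 kb and the *jhdm-1* peaks 29.4%, in patches that lie mostly inside *wdr-5* peaks.

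Sharing between the lists was compared next, with a peak counted as shared when it overlapped a peak of the other list by at least 1 bp. On the left arm 340 of the 482 *jhdm-1* peaks were shared, or 70.5% (95% Wilson interval from 66.3% to 74.4%). The right arm had 227 of 416 shared, or 54.6% (from 49.8% to 59.3%). Over all chromosomes the share was 55.4%, so the right arm was close to the whole list and the left arm above it. The paper reports a higher share of the *jhdm-1* peaks as shared with the *wdr-5* experiment, and does not state its counting rule. The intervals cover counting error only, and neighbouring peaks are not independent, so the intervals are no test between the arms.

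Along Chromosome III, the share of *jhdm-1* peaks was higher where *wdr-5* peaks covered more. The midpoint of a *jhdm-1* peak, a measure that does not depend on its length, fell within a *wdr-5* peak in 54.1% of the peaks on the left arm, where *wdr-5* peaks covered 32.0% of the sequence. For the right arm these values were 36.5% and 17.6%, and in the centre 16.2% and 1.70%. The ratio of the midpoints' share to the coverage was 1.69 on the left arm, 2.08 on the right arm and 9.52 in the centre. By this ratio the left arm, with the highest share of the 3, stood lowest. However, the highest ratio that can be reached falls as coverage rises, because the share of midpoints is bounded. The order of the 3 ratios is therefore partly set by coverage and does not rank the agreement of the lists. In windows of 500 kb on the left arm, the lowest and the highest *wdr-5* coverage of a whole window were set side by side. Between 0.5 and 1 Mb, where *wdr-5* peaks covered 7.21%, 19 of 59 *jhdm-1* peaks were shared. Between 1.5 and 2 Mb, where they covered 60.9%, 72 of 80 *jhdm-1* peaks were shared.

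For *wdr-5* peaks the arms did not part. Of 1017 on the left arm 385 were shared, or 37.9% (from 34.9% to 40.9%), and on the right arm 283 of 750, or 37.7% (from 34.3% to 41.3%). In the whole list 41% of the *wdr-5* peaks were shared. By length in base pairs, 24.0% of the *wdr-5* sequence on the left arm and 25.8% on the right arm lay in *jhdm-1* peaks, against 29.8% in the whole list. In the *jhdm-1* list the corresponding values were 56.2% and 35.7%, against 36.4% in the whole list. The 286 kb that the lists had in common on the left arm were thus a larger part of the *jhdm-1* list than of the *wdr-5* list, as were the 155.5 kb on the right arm.

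The difference between the arms in the *jhdm-1* share depended on the rule. It remained when 50% of the peak itself had to be overlapped, with 55.4% on the left arm and 33.7% on the right arm. Among the rules tried, it went away only when both members of a pair had to be covered to at least 50%. By this last rule 87 pairs were left on the left arm and 76 on the right arm. These were 18.0% and 18.3% of the *jhdm-1* peaks, against 16.9% in the whole list, and 8.55% and 10.1% of the *wdr-5* peaks, against 9.49%.

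Longer peaks were mostly shared more often. A longer peak has more sequence in which to overlap another by at least 1 bp, so part of this rise comes with the rule. Of the 314 *wdr-5* peaks of the left arm with 200 to under 500 bp 25.5% were shared, of the 183 with 1 to under 2 kb 41.5%, and of the 39 of 5 kb or more 87.2%. The right arm had 34.0% of 282 and 45.9% of 135 in the first and the second of these classes, but 29.4% of 252 in the class from 500 bp to under 1 kb, below the shorter peaks. The *wdr-5* peaks under 200 bp also departed from the order, since on the right arm 19 of 36 (52.8%) were shared, whereas 31 of 102 (30.4%) were on the left arm. In the *jhdm-1* list, shares on the left arm were 64.6% of 130 peaks of 200 to under 500 bp and 78.3% of 129 of 1 to under 2 kb. The right arm had 38.9% of 108 and 65.8% of 120. The arms thus differed most in the short *jhdm-1* peaks. All 8 *jhdm-1* peaks of 5 kb or more were shared. Shares were not adjusted for length within a class.

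**Figure D5:**
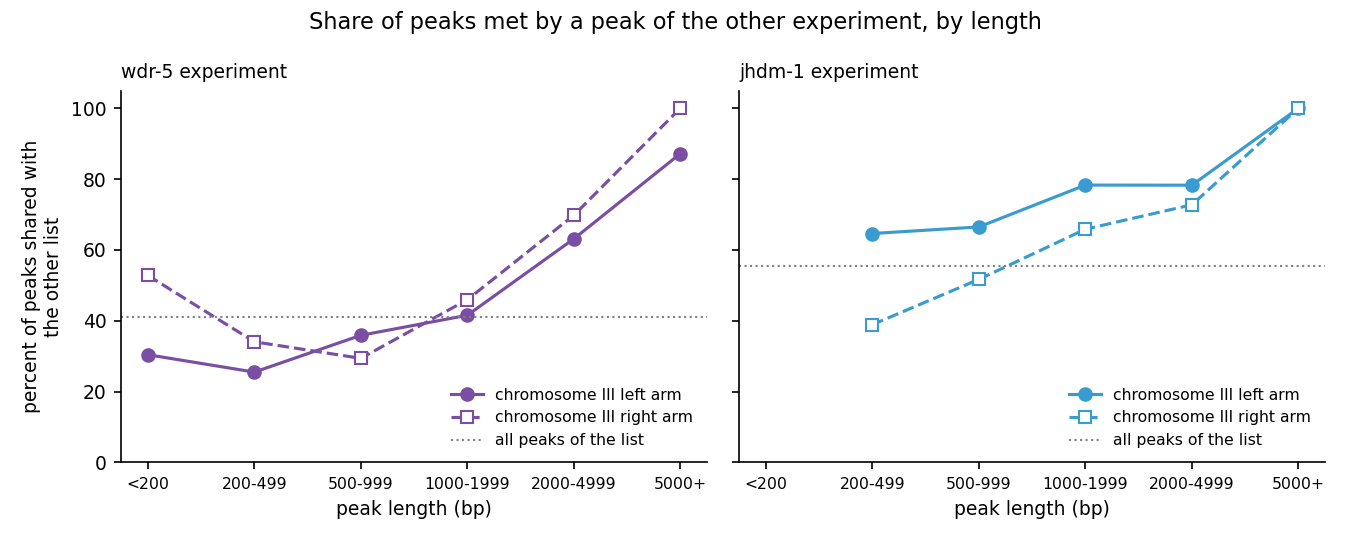
Percent of peaks that overlap a peak of the other list by at least 1 bp, by peak length (bp), on the left arm (filled circles, solid) and right arm (open squares, dashed) of Chromosome III, for the *wdr-5* list (left panel) and the *jhdm-1* list (right panel). Dotted lines mark all peaks of the list, 41% and 55.4%. In the *jhdm-1* list the left arm lies above the right arm for every class below 5 kb, from 64.6% against 38.9% in the shortest class shown.

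Where peaks met, their boundaries rarely coincided. The left arm had 441 overlapping pairs, and in 191 of these (43.3%) each peak met only the other. The right arm had 287 pairs, of which 177 (61.7%) were of this kind. The other pairs belonged to peaks that met several. In all, 72 *jhdm-1* peaks of the left arm (14.9%) met 2 or more *wdr-5* peaks. From the other side, 35 *wdr-5* peaks (3.44%) met 2 or more *jhdm-1* peaks. There were 43 (10.3%) and 4 (0.53%) such peaks on the right arm. In the whole lists the values were 13.3% of the *jhdm-1* peaks and 1.26% of the *wdr-5* peaks. Of the 2 arms of Chromosome III, the left thus had most of the multiple meetings from the *wdr-5* side. It held 35 of the 132 such *wdr-5* peaks in the whole list.

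In these exclusive pairs the *wdr-5* peak was the longer in 133 of 191 (69.6%) on the left arm and in 90 of 177 (50.8%) on the right arm. The *jhdm-1* peak lay wholly within the *wdr-5* peak in 101 pairs on the left arm, the reverse held in 22, and 68 were staggered. The numbers on the right arm were 59, 39 and 79. The start sites of a pair differed by 318 bp at the median on the left arm and 302 bp on the right arm, and the ends by 360 and 304 bp. Shared over joint length was 0.368 at the median on the left arm and 0.375 on the right arm. No peak on either arm had the same start and end in both lists, although the experiments have wild-type libraries in common. Over all peaks, 1 start on the left arm and 1 end on the right arm coincided to the base pair.

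The best matched pair with both peaks of at least 1 kb on the left arm was a *wdr-5* peak of 2430 bp (chrIII:3444784-3447213) and a *jhdm-1* peak of 2667 bp (chrIII:3444448-3447114), with 0.843 of their joint length shared. Its counterpart on the right arm was a *wdr-5* peak of 1260 bp (chrIII:11165490-11166749) and a *jhdm-1* peak of 1064 bp (chrIII:11165569-11166632) that lay within it, with 0.844. The longest stretch shared by a pair was 4337 bp on the left arm, where a *jhdm-1* peak (chrIII:273719-278055) lay wholly inside a *wdr-5* peak of 12726 bp (chrIII:271135-283860). On the right arm it was 4431 bp, where a *wdr-5* peak (chrIII:11595122-11599552) lay wholly inside the *jhdm-1* peak of 10892 bp. The direction of containment in these last 2 pairs was thus opposite on the arms. Over the exclusive pairs, however, the *jhdm-1* peak was the inner one more often on both arms, in 101 against 22 on the left and 59 against 39 on the right.

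Peaks without a counterpart were numerous in both lists. On the left arm 632 *wdr-5* peaks (62.1%) and 142 *jhdm-1* peaks (29.5%) overlapped no peak of the other list. For the right arm these were 467 (62.3%) and 189 (45.4%). In the whole lists the values were 59.0% for *wdr-5* and 44.6% for *jhdm-1* peaks. Only the *jhdm-1* value of the left arm was thus far from that of its list. Peaks without a counterpart were shorter than the shared peaks, which comes in part with the rule of at least 1 bp. The left arm medians of unshared and shared peaks were 511.5 and 881 bp in the *wdr-5* list and 721.5 and 836 bp in the *jhdm-1* list. The right arm medians were 555 and 677 bp, and 661 and 948 bp. Of the unshared *wdr-5* peaks 26.3% on the left arm and 28.5% on the right arm lay within 1 kb of a *jhdm-1* peak. Of the unshared *jhdm-1* peaks 33.1% and 34.9% were that close to the other list. Over the whole lists these values were 25.1% for *wdr-5* and 22.2% for *jhdm-1* peaks, and over the arms of the other autosomes 27.45% and 27.44%. Only 12 unshared *jhdm-1* peaks on the left arm (8.45%) and 15 on the right arm (7.94%) were more than 10 kb from any *wdr-5* peak. In the whole *jhdm-1* list, which includes the chromosome centres, 26.6% of the unshared peaks were that far away. Over the arms of the other autosomes it was 13.1%. Single arms there ran from 5.75% on the left arm of Chromosome I to 22.4% on the left arm of Chromosome V. Both arms of Chromosome III thus lay within the range of other arms.

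Some unshared peaks were long. The longest *wdr-5* peak without a counterpart was 7603 bp on the left arm (chrIII:313945-321547), where the nearest *jhdm-1* peak was 8370 bp away. On the right arm it was 2801 bp (chrIII:11608658-11611458), 1345 bp from the nearest *jhdm-1* peak. In all, 5 *wdr-5* peaks of 5 kb or more were unshared on the left arm. The longest unshared *jhdm-1* peaks were 3504 bp on the left arm (chrIII:1618293-1621796) and 3929 bp on the right arm (chrIII:11464845-11468773), at 1165 and 1640 bp from the nearest *wdr-5* peak. The widest gap in the *jhdm-1* list on the left arm, 76840 bp from 1233589 to 1310428, held 17 *wdr-5* peaks of 12308 bp in all. The one on the right arm, 66755 bp from 12297559 to 12364313, held 15 of 12093 bp. The widest *wdr-5* gap of the right arm, 58345 bp from 10497993 to 10556337, held 6 *jhdm-1* peaks of 5417 bp in all. The depth of the libraries is unknown, so a peak missing from a list may have been below detection there.

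A pair of places on these arms were drawn as browser views in the study. The view on the left arm lies near 1.03 Mb and touches 7 *wdr-5* and 7 *jhdm-1* peaks. Its longest *wdr-5* peak, 5950 bp (chrIII:1031425-1037374), met 3 *jhdm-1* peaks of 236, 592 and 603 bp, and each of these lay inside it. With 24.1% of its length covered, this peak was the median of the 39 long *wdr-5* peaks of the arm. The view on the right arm shows *rsks-1*, which encodes an S6 kinase of the TOR pathway. Here a *wdr-5* peak of 1085 bp (chrIII:11242135-11243219) and a *jhdm-1* peak of 956 bp (chrIII:11242516-11243471) were staggered, with 704 bp in common. The other *wdr-5* peak in this view, of 857 bp (chrIII:11245980-11246836), met no *jhdm-1* peak. In the RefSeq gene table, on a later build, *rsks-1* stands on Chromosome III between the genes *aakb-2*, which encodes a beta subunit of AMP-activated kinase, and *obr-1*, with Y47D3A.35 and Y47D3A.32 directly next to it. The table was used for the order of genes only.

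The arms of Chromosome III were finally set beside those of the other autosomes, with the edges placed at the same fractions of each chromosome. No test was made, since 10 arms of pooled lists are not replicates. The left arm of Chromosome III had the highest percent covered by *wdr-5* peaks of the 10 arms, 32.0% against a range from 5.75% to 25.2% on the 8 arms of Chromosomes I, II, IV and V. It also had the highest share of *wdr-5* peaks of 5 kb or more, 3.83% against 0.17% to 1.09%, and the highest share of gaps under 200 bp, 25.4% against 9.06% to 23.3%. The right arm lay within the range of the others in each of these, at rank 5 in percent covered. In peaks per Mb of the *wdr-5* list the left arm was at rank 3. In the *jhdm-1* list neither arm was at an end of the range by coverage, where the others ran from 5.76% to 16.5%, or by median length, from 782 to 972 bp. By base pairs lying in the other list, the *wdr-5* values of the left and right arm were at ranks 10 and 9 of the 10 arms. The *jhdm-1* value of the left arm was the highest, 56.2% against 25.8% to 54.8% on the 8 arms of the other autosomes. The share of *jhdm-1* peaks that were shared was second highest on the left arm, below 74.5% on the right arm of Chromosome V. Over the arms this share did not simply follow *wdr-5* coverage. The right arm of Chromosome IV, with 6.92% covered by *wdr-5* peaks, had 67.6% of its *jhdm-1* peaks shared, and the left arm of Chromosome I, with 25.2% covered, had 59.9%.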

How the data were processed

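H3K9me2 ChIP-seq of whole, mixed-stage animals was deposited as 2 peak lists. Per the paper's methods, filtered reads were mapped by the authors with Bowtie2 to build WS220/ce10, and broad peaks were called with MACS2 2.1.1. A peak had to occur in 2 or more replicates of a genotype and generation, and the union of such peaks was deposited. The methods name fewer replicates for the *jhdm-1* mutant than for the *wdr-5* mutant. The same rule thus asked for a larger part of the *jhdm-1* replicates, and its effect on the lists was not tested. Read length and sequencing platform also differed among the replicates of each experiment. The deposited values are start and end positions, with no score, count or signal. The depth of the libraries is therefore unknown, no replicate can be left out, and differences in calling or merging between the experiments would pass into the lengths, gaps and overlaps given here.

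Peaks were assigned to arms by their midpoints. Lengths, gaps, covered base pairs and overlaps were computed with Python 3.11.15, numpy 2.4.6, pandas 2.3.3 and scipy 1.17.1, and figures were drawn with matplotlib 3.10.9. Positions are counted from 1. The chromosome was taken to end at the last peak end in either list, 13772078 for Chromosome III. Arms of other autosomes began and ended at the same 27.0% and 75.1% of their span. A peak was called shared when it overlapped the other list by at least 1 bp, and the overlap counts over the whole lists were checked with bedtools 2.31.1. The interval functions were tested on made lists with known overlaps, which they recovered. Runs join neighbours with gaps of at most 1 kb.

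Named peaks follow a rule: the 3 longest of each list and arm, the outermost and innermost, the longest without counterpart, those that meet most peaks of the other list, the best matched pair and the pair with most shared length, the longest run, the 100 kb window with most peaks, the widest gap and the peaks in the study's browser views. The best covered windows, the 500 kb windows given, the stretch between 0.6 and 0.9 Mb and the second longest run of the left arm were singled out after their values had been seen. The regions and measures were chosen with earlier results of these data known. No test was run, because peaks of a pooled list are not replicates. The alternatives were a minimum length of 500 bp, merging within 1 kb, arms drawn by an even split of the chromosome into left, centre and right, other rules for sharing, base pairs in place of peaks and means in place of medians.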

Additional observations from a re-analysis of the deposited data

How the results depend on the processing

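Of 76 alternative values for 18 results, 45 stayed within the 95% Wilson interval (shares) or within 1.5 times the first value (others), 30 moved further and 1 reversed. Merging peaks within 1 kb turned the ratio of right to left arm in *wdr-5* peaks per Mb from 0.80 to 1.10, since more left arm peaks are joined. By construction, a minimum of 500 bp left 601 *wdr-5* peaks on the left arm and 432 on the right, with medians of 1056 and 896.5 bp, and merging left 438 and 445, with medians of 1250.5 and 956 bp. The mean *wdr-5* length on the left arm was 1172 bp. Arms drawn by an even split of the chromosome moved no value that far.

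Shares moved with the rule. In the order *wdr-5* left and right, then *jhdm-1* left and right, they were 22.4%, 25.6%, 55.4% and 33.7% with 50% of the peak itself overlapped, 8.55%, 10.1%, 18.0% and 18.3% with 50% of each peak, 54.2%, 55.5%, 80.3% and 70.4% within 1 kb, and 24.0%, 25.8%, 56.2% and 35.7% by base pairs. With 500 bp as the minimum, the *wdr-5* right arm had 32.9% and the *jhdm-1* arms 63.9% and 42.5%. With merging, the *wdr-5* arms had 47.5% and 46.3%. The *jhdm-1* share stayed higher on the left arm except under the rule of 50% of each peak. No paired analysis was possible because every replicate is merged into the lists, and the depth that limits detection is unknown.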
